A study of Danio rerio with 2 samples.

Results

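The genes described are 37 listed cell cycle genes of the zebrafish, taken by name in the feature list of the deposited matrices. Of these, 33 were found among 32057 features and 4 were not listed under their own name. The 33 comprised 14 S phase genes, 15 mitotic genes, 2 D cyclin genes and 2 high mobility group (HMG) box genes. Their transcripts were compared between hypothalami of wild-type (WT) male fish and of male fish with both cholecystokinin ligand genes knocked out (CCK1/2-KO, here also called the knockout), all 6 months old. The tissue of 30 fish per genotype was pooled and gave 1 single-cell RNA-seq library, so there were no replicates, no test across samples was possible and no p-value is given. Genotype, pool and library therefore cannot be told apart. The mutant line was bred from single mutants made with CRISPR/Cas9, and the number of founders behind it is not given in the sources used here. All intervals below are 95% intervals and cover counting error only.

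The WT library held 9364 barcodes with 51744329 unique molecular identifiers (UMIs), of which 9244 cells were kept, while the knockout gave 11604 barcodes and 58095515 UMIs, of which 11470 passed. Median depth was 2975 UMIs per cell (WT) and 2774.5 (knockout). The same barcode sequence occurred in both libraries 52 times, and leaving these cells out is among the settings of the closing section. For the edited ligand gene ccka, 19426 UMIs (WT) and 9462 UMIs (knockout) were counted, 376 CPM (WT) against 163 CPM (knockout), which is the direction of the labels. No value is given for the second ligand gene, which was not analysed here.

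Cells divide by copying their DNA in S phase and separating the copies in mitosis. The D cyclins act before S phase, in G1, and are also made by cells that do not divide, while helicase subunits of the MCM family and the enzymes of deoxynucleotide supply are needed for replication itself, and mitotic kinases, motors and spindle proteins act later. The adult zebrafish hypothalamus keeps dividing radial glia along its ventricle, rx3 is a transcription factor gene of hypothalamic progenitors, and macrophages and lymphocytes of the brain can divide as well.

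Each cell was given a lineage from raw counts of marker genes, with no cell cycle gene among them, each marker counting in a cell only where its share of UMIs was at least 2-fold its share of the library. Glial cells numbered 1040 in WT and 1257 in CCK1/2-KO, rx3-positive cells 318 and 426, oligodendrocyte lineage cells 575 and 512, and immune cells 768 and 771. The rule used these markers, so their levels describe the classes and do not test the names. The summed level of the glial markers was 43019 CPM in WT and 39026 CPM in CCK1/2-KO glial cells, against 740 and 676 CPM in immune cells, and that of the macrophage markers was 25901 and 24415 CPM in immune cells, against 301 and 299.97 CPM in glial cells. CPM is a gene's UMIs scaled to a fixed total of UMIs of the same cells. Mature oligodendrocyte markers summed to 40042 and 35887 CPM in oligodendrocyte lineage cells, and rx3 itself stood at 429.7 and 469 CPM in rx3-positive cells against 5.24 and 4.49 CPM in immune cells. It was also found in mural or fibroblast cells, at 177 and 120.2 CPM, and in cells of mixed markers, at 33.2 and 49.9 CPM. Mural or fibroblast cells also held glial markers, at 2961 and 3281 CPM, against 3986 and 3871 CPM of their own markers. In glial cells the mural or fibroblast markers summed to 1580 and 1711 CPM. Whether glial cells lie in the mural or fibroblast class was not tested. The rx3-positive cells were glial or unassigned cells with at least 1 rx3 UMI, and they were deep, with medians of 7015.5 and 7102 UMIs against 1936 and 1841 in glial cells. Of them, 148 WT and 176 CCK1/2-KO cells had exactly 1 rx3 UMI and so lay at the limit of the rule. Another 2141 and 2831 cells had too few markers for a lineage, and 399 and 401 had markers of more than one.

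Over all kept cells the S phase genes were close between the libraries, and the clearest exception was mcm7. A gene was called higher or lower where it had at least 20 UMIs over both libraries, changed at least 1.5-fold, and had an interval of the ratio that left out 1. Over all features 5.77% were called higher and 6.35% lower in the knockout, and of the 33 cell cycle genes 0 were higher and 4 lower, namely mcm7, mki67, cdc20 and ube2c. All 33 passed the minimum of 20 UMIs. Their median log2 fold change of knockout over WT was −0.21, against 0.0018 over all features.

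Among the S phase genes, pcna encodes the sliding clamp that holds DNA polymerases on their template, and it had 2195 UMIs across 1098 cells (WT) against 2329 across 1196 (knockout). These were 42.5 CPM (WT) against 40.2 CPM (knockout), a log2 fold change of −0.081 (−0.17 to 0.0038), so a difference was not detectable. The geminin gene gmnn, whose product limits replication to once per cycle, had 3378 UMIs across 1642 cells (WT) against 2922 across 1565 (knockout), a log2 fold change of −0.38 (−0.45 to −0.30). It lay under the fold, and its many cells include neurons and oligodendrocytes, described below. The MCM helicase unwinds DNA at the fork. Its gene mcm7 had 126 and 60 UMIs, or 2.44 and 1.04 CPM, with a log2 fold change of −1.24 (−1.71 to −0.78), and it was lower in the knockout. The other subunits differed less. The gene mcm2 had 322 and 346 UMIs, or 6.24 and 5.97 CPM, with a log2 fold change of −0.063 (−0.29 to 0.16). For mcm3 the counts were 486 and 442, with −0.30 (−0.49 to −0.11), and for mcm4 557 and 551, with −0.18 (−0.35 to −0.0096). The counts were 310 and 369 for mcm5, with 0.085 (−0.14 to 0.31), and 480 and 490 for mcm6, with −0.14 (−0.32 to 0.048), so that mcm7 stood apart from the 5 subunits it works with. The genes of deoxynucleotide supply went both ways. Ribonucleotide reductase makes deoxynucleotides, and its large subunit gene rrm1 had 459 and 675 UMIs, or 8.89 and 11.6 CPM, with a log2 fold change of 0.39 (0.22 to 0.56). The small subunit gene rrm2 had 559 and 502 UMIs, or 10.8 and 8.66 CPM, with a log2 fold change of −0.32 (−0.50 to −0.15), summed over 2 identifiers. Thymidylate synthase gene tyms had 162 and 135 UMIs, or 3.14 and 2.33 CPM, with a log2 fold change of −0.43 (−0.77 to −0.091), and the dUTPase gene dut had 715 and 771 UMIs, or 13.8 and 13.3 CPM, with a log2 fold change of −0.058 (−0.21 to 0.091). The remaining pair were ccne2, a cyclin of the entry into S phase, and hells, a chromatin remodeller. The gene ccne2 had 273 and 283 UMIs, or 5.29 and 4.88 CPM, with a log2 fold change of −0.11 (−0.36 to 0.13). The gene hells had 436 and 599 UMIs, or 8.44 and 10.3 CPM, with a log2 fold change of 0.29 (0.11 to 0.47). Apart from mcm7, every S phase gene stayed under the fold.

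Of the mitotic genes 3 were called lower in the knockout, and 12 of 15 log2 fold changes were below 0. The proliferation marker gene mki67 had 776 and 525 UMIs, or 15 and 9.06 CPM, with a log2 fold change of −0.73 (−0.89 to −0.57). The gene ube2c had 274 and 174 UMIs, or 5.31 and 3.0 CPM, with a log2 fold change of −0.82 (−1.10 to −0.54), and it encodes the enzyme that tags mitotic cyclins with ubiquitin. The activator of that step cdc20 had 118 and 81 UMIs, or 2.29 and 1.40 CPM, with a log2 fold change of −0.71 (−1.14 to −0.29). These were the 3 genes called lower. The DNA topoisomerase gene top2a had 354 and 274 UMIs, or 6.86 and 4.73 CPM, with a log2 fold change of −0.54 (−0.77 to −0.30), and cdk1, the kinase that drives mitosis, had 215 and 188 UMIs with −0.36 (−0.65 to −0.071). Of the cyclins of mitosis, ccna2 had 154 and 234 UMIs with 0.44 (0.14 to 0.74) and ccnb1 44 and 63 UMIs with 0.35 (−0.23 to 0.94), and with rrm1 these were the highest 3 ratios of all members. Neurons held 14.9% of the ccna2 UMIs in WT and 39.3% in the knockout. For rrm1 neurons held 27.2% and 35.7%, and for ccnb1 13.6% and 14.3%. The kinase genes of the spindle had intervals that included 0. For aurka the counts were 142 and 178 with 0.16 (−0.17 to 0.49), for aurkb 65 and 63 with −0.21 (−0.73 to 0.31), and for plk1 187 and 174 with −0.27 (−0.58 to 0.035). The partner of aurora B, birc5a, had 108 and 88 UMIs with −0.46 (−0.88 to −0.042). The motor genes kif11 and kif23 had 93 and 75 UMIs with −0.48 (−0.94 to −0.022), and 131 and 136 UMIs with −0.11 (−0.47 to 0.24). The spindle protein genes tpx2 and nusap1 had 232 and 176 UMIs with −0.56 (−0.86 to −0.28), and 289 and 263 UMIs with −0.30 (−0.55 to −0.056). Summed, the mitotic genes stood at 61.6 CPM (WT) against 46.4 CPM (knockout), a log2 fold change of −0.41 (−0.48 to −0.33), and the S phase genes at 203 CPM (WT) against 181 CPM (knockout), a log2 fold change of −0.16 (−0.20 to −0.13).

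The D cyclins and the HMG box genes were found in many more cells. The gene ccnd2a had 11748 and 14611 UMIs, or 227 and 252 CPM, with a log2 fold change of 0.15 (0.11 to 0.18), and ccnd1 had 2017 and 2304 UMIs, or 39.1 and 39.8 CPM, with a log2 fold change of 0.025 (−0.061 to 0.11). Both D cyclins carry the cell past G1, and neither reached the fold. The chromatin protein genes hmgb2a and hmgb2b rise in dividing cells of many tissues. For hmgb2a there were 6021 UMIs across 2486 cells (WT) against 4891 across 2418 (knockout), a log2 fold change of −0.47 (−0.52 to −0.41), and for hmgb2b 4497 UMIs across 2199 cells (WT) against 5209 across 2428 (knockout), a log2 fold change of 0.046 (−0.012 to 0.10). They are paralogs, and how reads common to both were counted is not given in the sources used here. Neither was called.

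**Figure D1:**
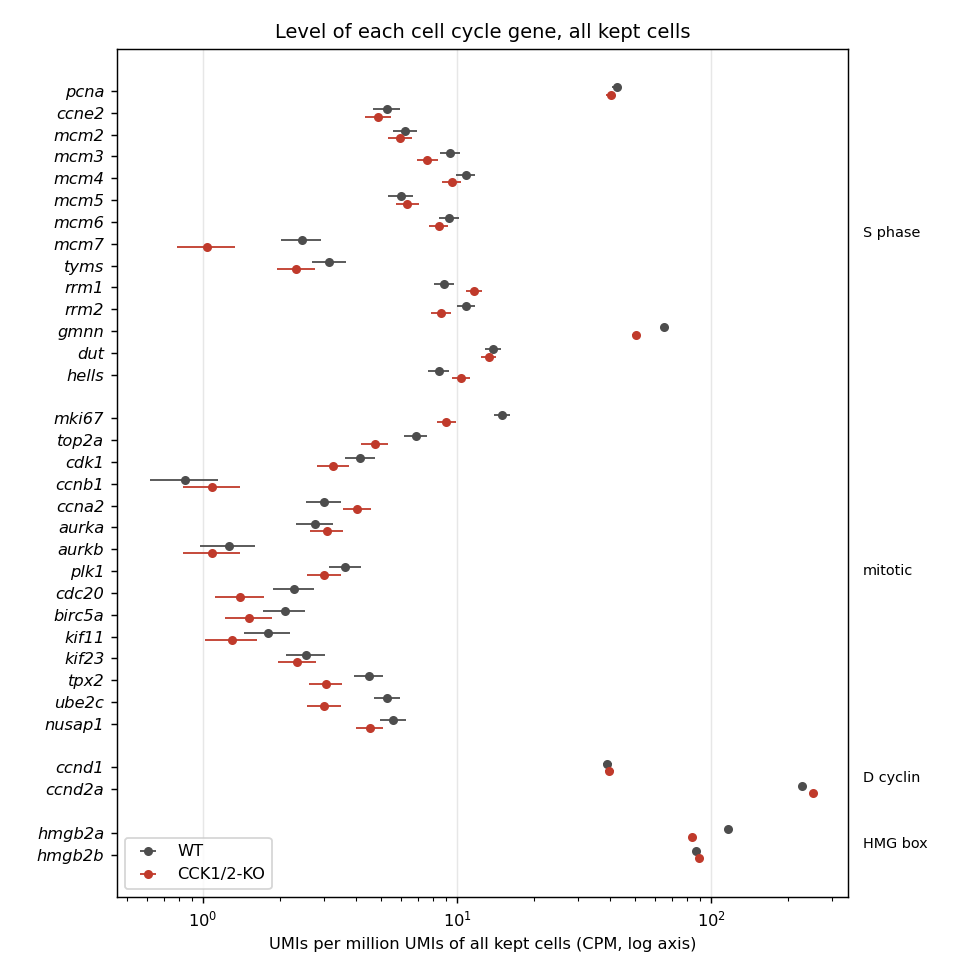
Level of each of the 33 cell cycle genes over all kept cells, in CPM (log axis), by role, as 1 point per library (WT grey, knockout red) with exact Poisson 95% intervals for counting error. The points of most genes lie close together, and mcm7 stands at 2.44 CPM in WT and 1.04 CPM in the knockout.

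The transcripts were far from even over the lineages, and rx3-positive cells led both lists. Of the 8 lineages with a name, rx3-positive cells had the highest level of 10 of the 14 S phase genes and 12 of the 15 mitotic genes in WT, and of 8 and 11 in the knockout. Their summed mitotic genes stood at 279.5 CPM (WT) against 197 CPM (knockout). Immune cells came next in WT, at 162 CPM, and stood at 62.1 CPM in the knockout, below the 78.3 CPM of the mural or fibroblast class, where the intervals overlapped. That class also held glial markers. Glial cells stood at 22.2 and 51.4 CPM, and neurons, which do not divide, stood at 16 and 18.8 CPM. Erythrocytes stood at 42.1 and 16.3 CPM and unassigned cells at 82.4 and 46.4 CPM, log2 fold changes of −1.37 (−1.93 to −0.84) and −0.83 (−1.0 to −0.66). Without the 3 top cells of each library these were −0.12 and −0.61, 1 WT barcode among the erythrocytes having held 13 of the 15 mitotic genes. The S phase list spanned a narrower range. It was 479 and 379 CPM in rx3-positive cells, 141 and 129.5 CPM in neurons and 60.5 and 51.1 CPM in erythrocytes. Neurons owed much of theirs to gmnn. Without it their S phase level was 68.1 and 74.3 CPM, against 428 and 341 CPM in rx3-positive cells.

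**Figure D2:**
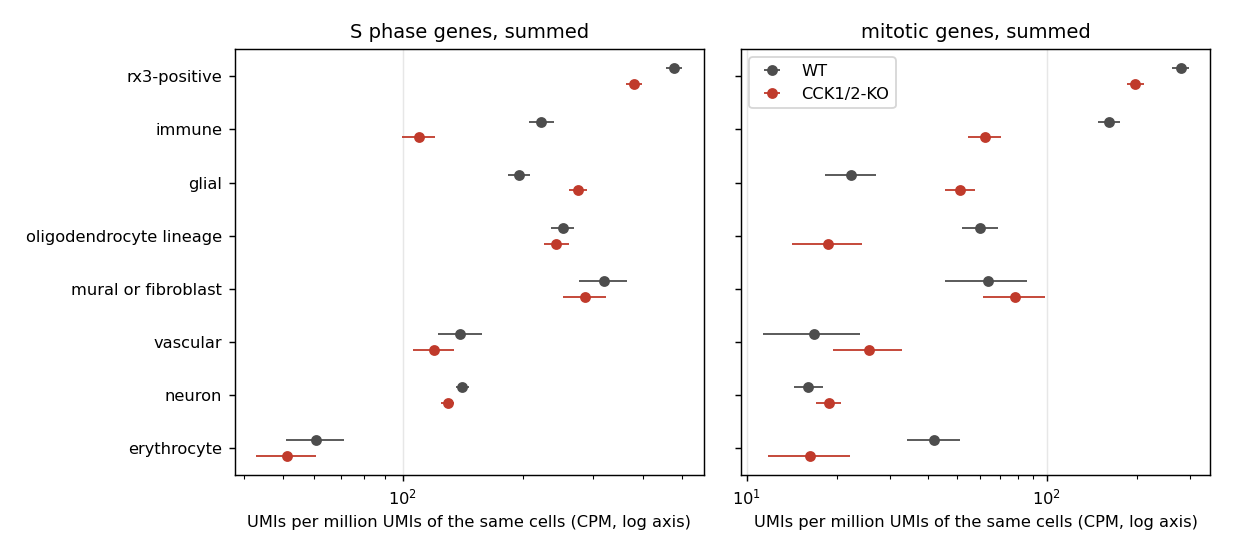
Summed level of the 14 S phase genes (left) and of the 15 mitotic genes (right) in 8 lineages, in UMIs scaled to a fixed total of UMIs of the same cells (CPM, log axis), for WT (grey) and knockout (red), with exact Poisson 95% intervals for counting error. The rx3-positive cells lie furthest right in both panels, immune cells are lower in the knockout in both, and glial cells are higher in the knockout in both; the mitotic level of oligodendrocyte lineage cells in WT, 59.9 CPM, rests mostly on 1 cell.

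The balance of S phase against mitotic transcripts also differed by lineage. Of the UMIs of both lists, S phase genes took 76.7% in WT and 79.6% in the knockout over all kept cells, a difference of 2.88 percentage points (1.89 to 3.87). In immune cells the percent was lowest, 57.9% (55.2 to 60.6) in WT and 63.8% (60.0 to 67.5) in the knockout. In rx3-positive cells it was 63.1% (61.2 to 65) and 65.8% (64 to 67.6). These were the lowest percents of the 4 lineages in both libraries. In glial cells the percent was 89.8% in WT and 84.2% in the knockout, a difference of −5.57 points (−7.99 to −3.02), the only fall among the 4 lineages. In oligodendrocyte lineage cells it was 80.8% and 92.9%. In WT, 1 of these cells held 168 of the 215 mitotic UMIs and only 22 S phase UMIs, so the WT percent rests mostly on 1 cell. Without gmnn and mki67, which had most UMIs of their lists, the difference in immune cells turned from 5.97 points (1.37 to 10.5) to −1.23 points (−6.39 to 3.80), so the direction depends on these genes.

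The share of cells with 3 or more of the 33 genes was compared next. Most cells held few of the genes, and 34.1% of WT and 38.2% of knockout cells held none, while 92 and 94 cells held 10 or more and the highest number in a cell was 27 in both libraries. Without adjustment for depth, 19.5% (18.7 to 20.4) of WT and 16% (15.3 to 16.7) of knockout cells held 3 or more. Such cells were deep, with medians of 9920.5 and 9241 UMIs against 1837 and 1798.5 in the others. Each cell was therefore thinned to 1000 UMIs by 1 random draw, which removed the shallower cells, 2381 in WT and 3179 in the knockout. The share was then 2.70% (2.33 to 3.11) of WT and 2.05% (1.76 to 2.38) of knockout cells, or 185 of 6863 and 170 of 8291 cells, with a ratio of knockout over WT of 0.761 (0.619 to 0.934). Over 20 further draws the ratio lay from 0.652 to 0.905. Thinned to 2000 UMIs it was 0.978 (0.843 to 1.14), so the overall difference depends on the depth chosen. Without the barcode sequences found in both libraries, which also meant a new draw at 1000 UMIs, it was 0.871 (0.707 to 1.07). That value lies within the range of the 20 further draws.

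Among the 4 lineages rx3-positive cells had the highest thinned share, and only in immune cells were the libraries apart. In rx3-positive cells the share was 11.1% (7.65 to 15.3) of WT and 9.95% (7.10 to 13.4) of knockout cells, a ratio of 0.898 (0.572 to 1.41). In immune cells it was 8.77% (6.68 to 11.3) of WT and 2.28% (1.28 to 3.73) of knockout cells, or 55 of 627 and 15 of 659, a ratio of 0.259 (0.148 to 0.454) that lay from 0.195 to 0.576 over the further draws. At 2000 UMIs that ratio was 0.498 (0.331 to 0.751) and without thinning 0.771 (0.623 to 0.954), so its size depends on the depth, while its direction did not change. In glial cells it was 3.11% (1.98 to 4.63) of WT and 4.75% (3.43 to 6.38) of knockout cells, a ratio of 1.52 (0.924 to 2.52), and over the further draws from 0.855 to 1.63, so no difference was detectable, and without thinning it was 0.983 (0.852 to 1.13). In oligodendrocyte lineage cells it was 2.86% (1.57 to 4.75) of WT and 2.45% (1.23 to 4.34) of knockout cells, a ratio of 0.857 (0.393 to 1.87). Erythrocytes and neurons, which should hold few dividing cells, gave 0.810% and 0.664%, and 0.183% and 0.320%. Median depths before thinning were 1054 and 1002 UMIs in erythrocytes and 3152.5 and 4024 UMIs in immune cells. Counting only the 29 S phase and mitotic genes, the shares were 3.83% and 0.910% in immune cells, 5.36% and 5.38% in rx3-positive cells, 0.812% and 1.39% in glial cells and 0.816% and 0.223% in oligodendrocyte lineage cells. They were 0.162% and 0.133% in erythrocytes and 0.0457% and 0.0712% in neurons. The oligodendrocyte values rest on 4 and 1 cells.

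**Figure D3:**
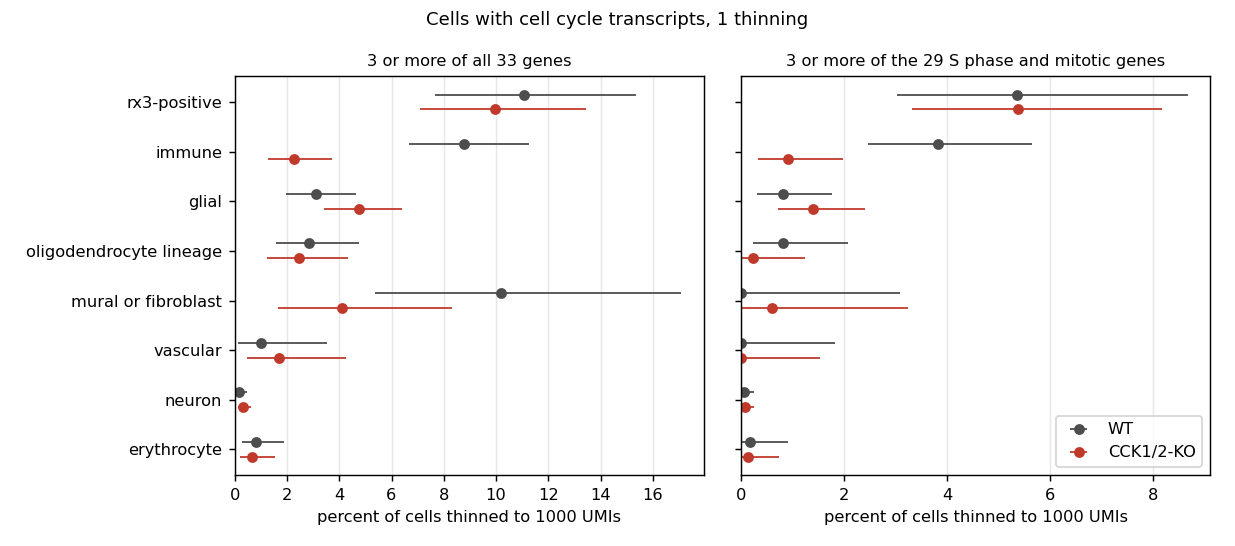
Percent of cells with UMIs of 3 or more of the 33 genes (left) and of 3 or more of the 29 S phase and mitotic genes (right), each cell thinned to 1000 UMIs in 1 draw, by lineage, for WT (grey) and knockout (red), with exact Clopper-Pearson 95% intervals. Among the 4 lineages described, the intervals of the libraries are apart in immune cells, 8.77% against 2.28% on the left, and overlap in glial, rx3-positive and oligodendrocyte lineage cells.

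Cells with 3 or more mitotic genes were few, and it is in these that the libraries can be counted cell by cell. Unthinned, there were 68 in WT and 51 in the knockout, or 0.736% (0.572 to 0.932) and 0.445% (0.331 to 0.584) of kept cells. Of them, 15 and 23 were rx3-positive, 22 and 5 immune, 2 and 5 glial, 2 and 1 of the oligodendrocyte lineage and 18 and 10 unassigned. The rest were mixed, 6 and 2, or of other lineages. In the unassigned ones the glial markers summed to 3891 and 5496 CPM, against 2208 and 2010 CPM over all unassigned cells. Neuron markers summed to 1460 and 2187 CPM in them, erythrocyte markers to 1860 and 640 CPM, mural or fibroblast markers to 418 and 450 CPM, and macrophage markers to 66.7 and 39.5 CPM. These levels do not name a lineage for them. Immune cells thus held 22 of 68 of these cells in WT and 5 of 51 in the knockout. Barcodes with the top doublet scores made up 7.35% of the 68 against 7.49% of other WT cells, and 15.7% of the 51 against 9.26% of other knockout cells, whose part in the results was tested only by removing them, as given in the closing section. Cells with 3 or more S phase genes but fewer than 3 mitotic genes were more common, 282 in WT and 325 in the knockout. Of these, 96 and 100 were neurons, which do not divide. All cells with 3 or more S phase genes had median depths of 14015 and 13258 UMIs, against 2742 and 2541 in the others. Holding 3 such genes therefore does not place a cell in S phase. Of the mitotic cells, 50 of 68 and 44 of 51 also held 3 or more S phase genes, so the lists do not split these cells into phases.

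**Figure D4:**
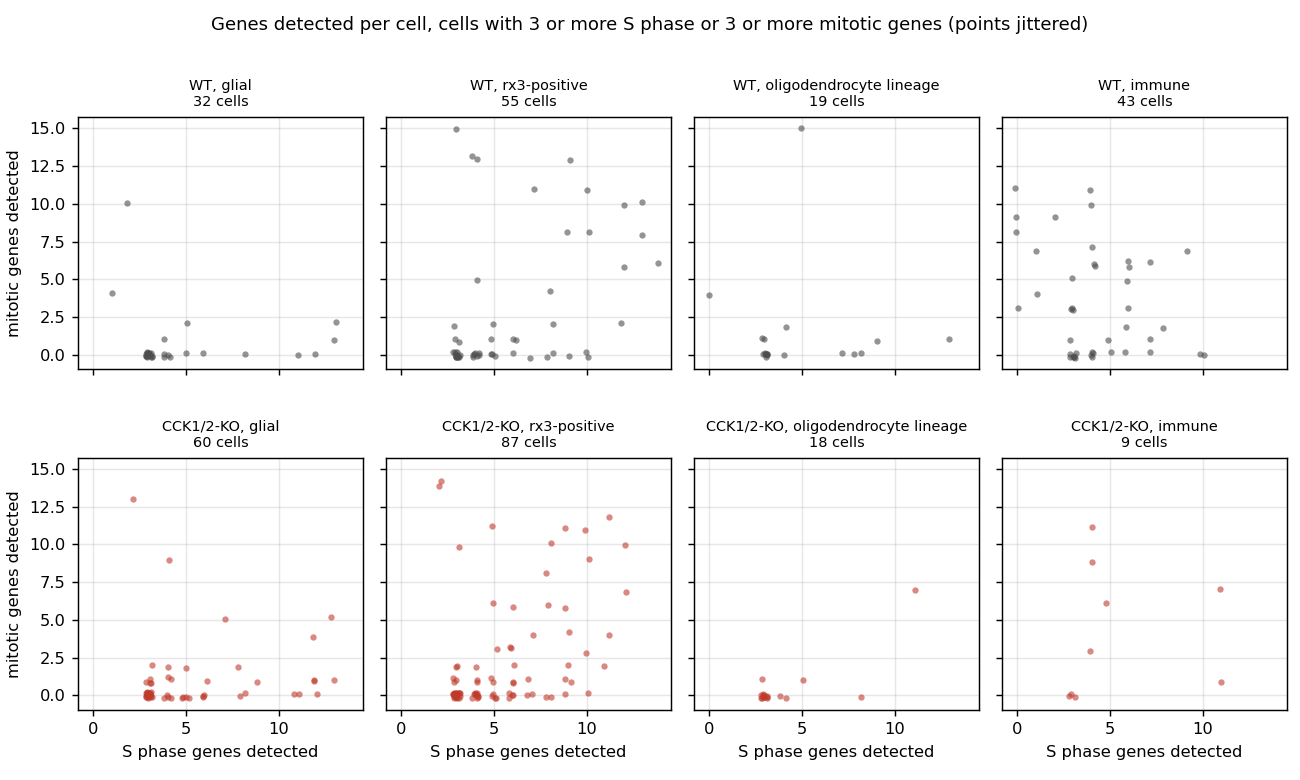
Number of S phase genes (horizontal) and mitotic genes (vertical) detected in each cell that held 3 or more of either list, in WT (top, grey) and knockout (bottom, red), by lineage, without thinning, each point being 1 cell moved slightly at random. Immune cells number 43 in WT and 9 in the knockout. The median number of mitotic genes is 0 in glial, rx3-positive and oligodendrocyte lineage cells of both libraries, and 3 in immune cells of both.

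Immune cells showed the broadest fall. Of the 33 genes 27 passed the minimum of 20 UMIs, and 16 were lower and 0 higher in the knockout, where over all features in these cells 14% were lower and 7.92% higher. The median log2 fold change of the 27 was −1.13, against −0.12 over all features. In this lineage 6.77% of WT cells, 52 of 768, and 1.95% of knockout cells, 15 of 771, held 3 or more S phase or mitotic genes without thinning. Immune cells had median depths of 3152.5 UMIs in WT and 4024 in the knockout, and these shares are not adjusted for depth. The list levels were 222 CPM (WT) against 109.6 CPM (knockout) for S phase genes, a log2 fold change of −1.02 (−1.20 to −0.85), and 162 CPM (WT) against 62.1 CPM (knockout) for mitotic genes, a log2 fold change of −1.38 (−1.61 to −1.16). Without the 3 cells of each library with most UMIs of the list, the ratios were −1.20 and −2.60, since 1 knockout cell alone held 120 of the 235 mitotic UMIs.

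By gene, the clamp gene pcna had 228 UMIs across 95 cells (WT) against 115 across 64 (knockout), 66.3 CPM (WT) against 30.4 CPM (knockout), a log2 fold change of −1.13 (−1.46 to −0.80). Of the helicase genes, mcm3 had 50 and 8 UMIs with −2.78 (−4.07 to −1.70), mcm2 and mcm4 were lower as well, and mcm6, at 47 UMIs in both libraries, was not called. The nucleotide genes tyms, rrm1, rrm2 and dut were all lower, and dut had 85 UMIs across 37 cells (WT) against 25 across 15 (knockout), 24.7 CPM (WT) against 6.60 CPM (knockout), a log2 fold change of −1.90 (−2.61 to −1.25). Among mitotic genes mki67 had 201 UMIs across 34 cells (WT) against 66 across 9 (knockout), 58.5 CPM (WT) against 17.4 CPM (knockout), a log2 fold change of −1.75 (−2.17 to −1.34), with 86.4% of the knockout UMIs in 3 cells. The kinase gene cdk1 had 57 UMIs across 19 cells (WT) against 7 across 4 (knockout), 16.6 CPM (WT) against 1.85 CPM (knockout), a log2 fold change of −3.16 (−4.54 to −2.03). The genes top2a, aurkb, kif11, kif23 and tpx2 were lower too. Not all followed, since nusap1 had 34 and 38 UMIs and gmnn 63 and 99, the latter with a log2 fold change of 0.51 (0.043 to 0.99). The HMG box gene hmgb2a was lower, with 1218 UMIs across 384 cells (WT) against 803 across 348 (knockout), 354 CPM (WT) against 212 CPM (knockout), a log2 fold change of −0.74 (−0.87 to −0.61). The D cyclin gene ccnd2a had 5018 UMIs across 298 cells (WT) against 4315 across 289 (knockout), 1459.7 CPM (WT) against 1139.7 CPM (knockout), a log2 fold change of −0.36 (−0.42 to −0.30), which was under the fold. Summed with ccnd1, its level was not lower within macrophages or within T or NK cells, as described below.

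Both immune classes had lower mitotic levels in the knockout, and the shares of cells separated the libraries in macrophages. Macrophage cells numbered 530 in WT and 599 in the knockout, and T or NK cells 238 and 170, by the larger share of either marker list. Among macrophages 43 WT and 9 knockout cells held 3 or more S phase or mitotic genes, 8.11% and 1.5%, a ratio of 0.185 (0.0912 to 0.376). Thinned to 1000 UMIs they were 4.23% and 0.601%, a ratio of 0.142 (0.0420 to 0.482). The log2 fold change of macrophages was −1.17 (−1.38 to −0.95) for S phase genes and −1.23 (−1.49 to −0.97) for mitotic genes. In T or NK cells 9 and 6 cells passed, 3.78% and 3.53%, a ratio of 0.933 (0.339 to 2.57), so a difference was not detectable there. Their mitotic level was 211 CPM (WT) against 65.5 CPM (knockout), a log2 fold change of −1.69 (−2.22 to −1.18), resting on 15 and 9 cells with a UMI. Their S phase level was 292 CPM (WT) against 222 CPM (knockout), a log2 fold change of −0.40 (−0.71 to −0.088). The D cyclins were highest in T or NK cells, at 4773 and 5050.0 CPM against 326 and 409.8 CPM in macrophages, and T or NK cells were the class with fewer cells in the knockout. Within the classes the D cyclin level was higher in the knockout, with a log2 fold change of 0.33 (0.21 to 0.46) in macrophages and 0.081 (0.013 to 0.15) in T or NK cells, against −0.36 (−0.42 to −0.30) over all immune cells. The difference between the cell classes was not tested.

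Glial cells moved the other way. Of the 33 genes 27 passed the minimum, 16 were higher and 1 lower in the knockout, where over all features in these cells 7.44% were higher and 6.22% lower. The median log2 fold change of the 27 was 1.01, against 0.015 over all features. The S phase list stood at 196 CPM (WT) against 275 CPM (knockout), a log2 fold change of 0.49 (0.37 to 0.61), and 0.76 (0.62 to 0.91) without gmnn. Of the 14 S phase genes, 9 were higher, 1 lower and 4 neither. Without the 2-fold condition of the lineage rule, which was set after the data were seen, the log2 fold change was 0.20 for S phase and 0.37 for mitotic genes. With that condition left out 5 of 28 genes were higher, and the share over all features was not computed there. The clamp gene pcna had 144 UMIs across 74 cells (WT) against 300 across 118 (knockout), 29.9 CPM (WT) against 53.4 CPM (knockout), a log2 fold change of 0.84 (0.54 to 1.13). For mcm6 there were 33 UMIs across 14 cells (WT) against 97 across 34 (knockout), 6.85 CPM (WT) against 17.3 CPM (knockout), a log2 fold change of 1.33 (0.75 to 1.95), and for hells 35 UMIs across 13 cells (WT) against 102 across 45 (knockout), 7.27 CPM (WT) against 18.2 CPM (knockout), a log2 fold change of 1.32 (0.75 to 1.92). The genes mcm2, mcm5, tyms, rrm1, rrm2 and dut were higher as well. The genes mcm3, mcm4, mcm7 and gmnn were not called, mcm7 having 14 and 12 UMIs. The cyclin E gene ccne2 was lower, with 30 and 15 UMIs and a log2 fold change of −1.22 (−2.22 to −0.28). The gene gmnn had 318 UMIs across 174 cells (WT) against 307 across 171 (knockout), 66.1 CPM (WT) against 54.7 CPM (knockout), a log2 fold change of −0.27 (−0.50 to −0.043). Of the broad genes, ccnd2a had 1657 UMIs across 390 cells (WT) against 2519 across 560 (knockout), 344 CPM (WT) against 448 CPM (knockout), a log2 fold change of 0.38 (0.29 to 0.47), and hmgb2b 451 UMIs across 260 cells (WT) against 642 across 283 (knockout), 93.7 CPM (WT) against 114 CPM (knockout), a log2 fold change of 0.29 (0.11 to 0.46), both under the fold.

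The rise of the mitotic genes in glial cells was carried by few cells. Their list stood at 22.2 CPM (WT) against 51.4 CPM (knockout), a log2 fold change of 1.21 (0.89 to 1.54), with 107 and 289 UMIs. The 3 cells with most mitotic UMIs held 31, 8 and 4 in WT and 96, 63 and 9 in the knockout, and without them the log2 fold change was 0.70. The genes mki67, top2a, cdk1, plk1, kif11, tpx2 and nusap1 were called higher, and without a gene's 3 top cells in each library none of these 7 was called, while 9 of the 9 S phase calls held. For mki67 there were 20 UMIs across 10 cells (WT) against 49 across 12 (knockout), 4.15 CPM (WT) against 8.72 CPM (knockout), a log2 fold change of 1.07 (0.29 to 1.90), with 65% and 73.5% of the UMIs in 3 cells. Cells with 3 or more S phase genes numbered 30 of 1040 in WT and 59 of 1257 in the knockout, a ratio of 1.63 (1.06 to 2.51). They had median depths of 11610.5 and 14174 UMIs, against 1936 and 1841 over all glial cells. Thinned to 1000 UMIs, cells with 3 or more S phase genes numbered 5 and 10, a ratio of 1.71 (0.587 to 4.98).

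In rx3-positive cells the list levels were lower in the knockout while no difference in the shares of cells was detectable. Of the 33 genes 32 passed the minimum, 8 were lower and 0 higher, where over all features in these cells 7.92% were lower and 7.07% higher, and the median log2 fold change was −0.36, against −0.0051 over all features. The S phase list stood at 479 CPM (WT) against 379 CPM (knockout), a log2 fold change of −0.33 (−0.43 to −0.24), and the mitotic list at 279.5 CPM (WT) against 197 CPM (knockout), a log2 fold change of −0.50 (−0.63 to −0.37). Without the 3 top cells of each library these were −0.17 and −0.31. Without the 2-fold condition of the lineage rule, set after the data were seen, the S phase value was −0.076 and the mitotic value turned to 0.51. With that condition left out 4 of 30 genes were lower, and the share over all features was not computed there. The helicase genes summed to 184 CPM (WT) against 113 CPM (knockout), a log2 fold change of −0.71 (−0.88 to −0.54), and mcm2, mcm3, mcm6 and mcm7 were called lower. For mcm6 there were 122 UMIs across 36 cells (WT) against 92 across 49 (knockout), 35.4 CPM (WT) against 19.5 CPM (knockout), a log2 fold change of −0.86 (−1.27 to −0.46), and for mcm7 36 and 14 UMIs with −1.82 (−2.82 to −0.89). Of the mitotic genes top2a, cdc20, kif11 and ube2c were lower, and ube2c had 117 UMIs across 15 cells (WT) against 62 across 10 (knockout), 34 CPM (WT) against 13.2 CPM (knockout), a log2 fold change of −1.37 (−1.84 to −0.91). The gene mki67 had 240 UMIs across 22 cells (WT) against 260 across 33 (knockout), 69.7 CPM (WT) against 55.2 CPM (knockout), a log2 fold change of −0.34 (−0.60 to −0.078), and pcna 299 UMIs across 69 cells (WT) against 392 across 110 (knockout), 86.9 CPM (WT) against 83.2 CPM (knockout), a log2 fold change of −0.062 (−0.28 to 0.16), neither past the fold. The gene hells had 133 and 192 UMIs with 0.077 (−0.25 to 0.41), so not every replication gene was lower. The broad genes ccnd2a and hmgb2b had log2 fold changes of 0.33 (0.23 to 0.43) and 0.045 (−0.084 to 0.17). Cells with 3 or more mitotic genes were 15 of 318 and 23 of 426, 4.72% and 5.40%, a ratio of 1.14 (0.607 to 2.16).

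The rx3-positive cells were not of one kind. Those with glial markers numbered 203 and 281, and their mitotic level was 52 CPM in WT and 135 CPM in the knockout, a log2 fold change of 1.37 (1.09 to 1.67). Those without enough markers of any lineage numbered 115 and 145, with 819 and 413 CPM, a log2 fold change of −0.99 (−1.16 to −0.82). The mitotic levels of the 2 kinds thus moved in opposite directions, but they rest on few cells. The 3 WT rx3-positive cells with most mitotic UMIs held 151, 145 and 130, each above the 126 of all WT cells with glial markers. All 3 therefore lay in the second kind, which held 836 in WT, and the split was not repeated without them. Cells with 3 or more mitotic genes were 3 and 11 among the first and 12 and 12 among the second. For S phase genes the log2 fold changes were −0.46 (−0.60 to −0.33) and 0.051 (−0.092 to 0.19). With glial and rx3-positive cells pooled, 1358 and 1683 cells, the log2 fold change was 0.041 (−0.034 to 0.12) for S phase and −0.13 (−0.25 to −0.014) for mitotic genes.

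**Figure D5:**
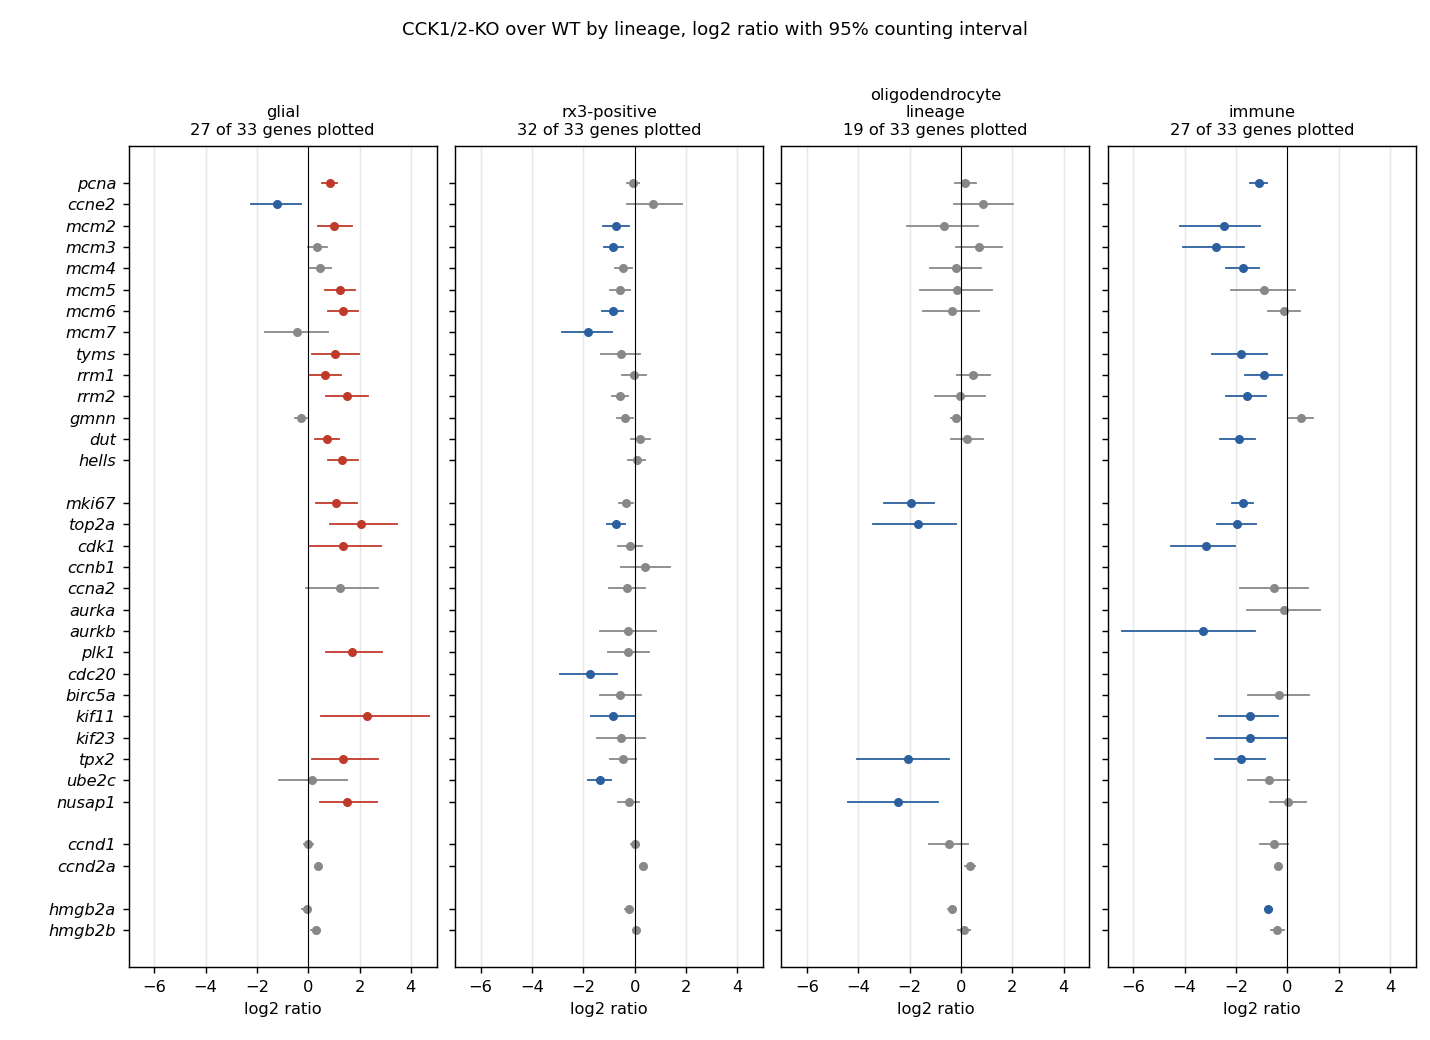
Log2 ratio of knockout over WT for each cell cycle gene with at least 20 UMIs in the lineage, in 4 lineages, with exact 95% counting intervals. Red points are genes called higher, blue points genes called lower and grey points neither: 16 are red and 1 is blue in glial cells, 8 blue in rx3-positive cells, 4 blue in oligodendrocyte lineage cells and 16 blue in immune cells.

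In oligodendrocyte lineage cells the genes called lower rested on single cells. Of the 33 genes 19 passed the minimum, 4 were lower and 0 higher, where over all features in these cells 5.96% were lower and 8.21% higher, and the median log2 fold change was −0.19, against 0.024 over all features. The S phase list stood at 252 CPM (WT) against 243 CPM (knockout), a log2 fold change of −0.052 (−0.19 to 0.091). The 4 genes called lower, mki67, top2a, tpx2 and nusap1, were all mitotic, and mki67 had 56 UMIs across 7 cells (WT) against 12 across 5 (knockout), 15.6 CPM (WT) against 4.0 CPM (knockout), a log2 fold change of −1.97 (−3.0 to −1.05). Of the 215 mitotic UMIs in WT, 1 cell held 168, with all 15 mitotic genes detected, against 19 in the top cell of the knockout. The log2 fold change of the list was −1.68 (−2.13 to −1.25), and −0.062 without the 3 top cells of each library, when 0 of the 4 genes was called. Precursors held most of these UMIs, with 186 and 32 in 98 and 105 cells, and mature cells 29 and 23 in 477 and 405 cells. The WT cell with 168 held more than all mature cells, so it was a precursor and made up most of the WT precursor count. The mitotic log2 fold change of precursors was −2.37 (−2.96 to −1.83), and −0.13 without the 3 top cells of each library. The geminin gene gmnn was at its highest here, with 556 UMIs across 213 cells (WT) against 408 across 157 (knockout), 155 CPM (WT) against 136 CPM (knockout), a log2 fold change of −0.19 (−0.38 to −0.0026), while cells with 3 or more mitotic genes numbered 2 and 1. The gene hmgb2a had 941 UMIs across 338 cells (WT) against 621 across 266 (knockout), 262 CPM (WT) against 207 CPM (knockout), a log2 fold change of −0.34 (−0.49 to −0.19), and ccnd2a 393 and 421 UMIs with 0.36 (0.15 to 0.56), under the fold.

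Detection of these genes together in a cell was counted. In cells with a UMI of mki67, 158 in WT and 120 in the knockout, the median of the other 14 mitotic genes was found in 16.8% in WT and 17.1% in the knockout, against 0.550% and 0.463% of cells without mki67. In cells with pcna the median mitotic gene was found in 3.10% and 2.68%, against 0.626% and 0.477% of cells without it. In cells with gmnn it was found in 1.28% and 1.21%, against 0.737% and 0.606% without. In cells with ccnd2a it was 1.12% and 1.07%, against 0.724% and 0.502% without. The cells with mki67 had medians of 7902 UMIs in WT and 9038.5 in the knockout, against 2914.5 and 2720 in cells without it. Those with pcna had 8753.5 and 8386 UMIs, against 2412.5 and 2176. Those with gmnn had 8364.5 and 7578 UMIs, against 1994.5 and 1968, and those with ccnd2a 6027 and 5098.5, against 2048 and 1853.5. These cells were not thinned, and how far depth sets these values was not tested.

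Other cell cycle genes were counted from lists made for this work, with the same rule. Over all kept cells, 4 of the 27 S phase genes tested were lower and 1 higher, with a median log2 fold change of −0.29. Of the 30 mitotic genes tested there, 12 were lower and 0 higher, with a median of −0.36. Over all features 6.35% were lower and 5.77% higher. Of 28 other S phase genes, 14 were tested in immune cells and 12 were lower and 0 higher, with a median log2 fold change of −1.26. Of 32 other mitotic genes, 18 were tested there and 11 were lower and 0 higher, where 14% of all features were lower. Examples are chaf1a, with 65 and 14 UMIs and a log2 fold change of −2.35 (−3.30 to −1.51), a gene of chromatin assembly behind the fork, and rpa2, with 152 and 47 UMIs and a log2 fold change of −1.83 (−2.34 to −1.35), a subunit of the protein that coats single-stranded DNA. In glial cells 7 of 22 and 5 of 10 were higher and 0 lower, against 7.44% of all features higher, among them fen1, with 22 and 58 UMIs and a log2 fold change of 1.18 (0.45 to 1.95), a nuclease of lagging strand synthesis. In rx3-positive cells 8 of 23 and 7 of 26 were lower and 0 higher, against 7.92% of all features lower, among them fen1, with 49 and 15 UMIs and a log2 fold change of −2.16 (−3.10 to −1.30). In oligodendrocyte lineage cells 2 of 15 and 3 of 8 were lower, against 5.96% of all features. These genes were counted in the same cells as the members and are no independent count. They were not recounted without the top cells of a gene. Without those cells 0 of the 4 members called in oligodendrocyte lineage cells was called, and none of the 7 mitotic members called in glial cells.

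Genes that hold the cycle back were counted in the same way. Of 25 inhibitors and quiescence genes, 0 were called over all kept cells, where all 25 were tested and the median log2 fold change was −0.039. In glial cells 2 of the 23 tested were higher and 2 lower, against 7.44% and 6.22% of all features. The inhibitor p27 is encoded by cdkn1ba, with 681 and 527 UMIs and a log2 fold change of −0.59 (−0.76 to −0.43) in glial cells, and it was lower there and in rx3-positive cells, where 496 and 442 UMIs gave −0.62 (−0.81 to −0.43). The inhibitor gene cdkn1ca was higher in glial cells, at 1.18 (0.13 to 2.33), in rx3-positive cells, at 1.13 (0.46 to 1.85), and in oligodendrocyte lineage cells, at 0.64 (0.29 to 0.99). In rx3-positive cells 2 of the 23 tested were higher and 1 lower, against 7.07% and 7.92% of all features. Oligodendrocyte lineage cells had 2 of 23 higher and 0 lower, against 8.21% and 5.96% of all features. In immune cells 3 of the 21 tested were higher and 1 lower, against 7.92% and 14% of all features. Among the higher ones were the antiproliferative gene tob1a, with 615 and 1046 UMIs and a log2 fold change of 0.63 (0.48 to 0.77), and the paralog cdkn1cb, with 63 and 155 UMIs and a log2 fold change of 1.16 (0.73 to 1.61). Not every called gene is named here. With so few called, these counts do not set the list apart from all features in any lineage.

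The 4 names not found were cdt1, bub1, bub1bb and cenpf. The feature list held these genes under capitals or an identifier alone, and they were left out of every count above. Their values, matched by identifier, were 59 and 62 UMIs for cdt1, the licensing factor that geminin binds, 24 and 32 for bub1 and 51 and 45 for bub1bb, both spindle checkpoint genes, and 261 and 243 for the kinetochore gene cenpf. Their log2 fold changes were −0.095 (−0.63 to 0.44), 0.25 (−0.56 to 1.08), −0.35 (−0.96 to 0.26) and −0.27 (−0.53 to −0.012), and none was called. The 2 identifiers listed as rrm2 had 176 and 193, and 383 and 309 UMIs in WT and knockout.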

How the data were processed

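Hypothalamic cells of male zebrafish were profiled with droplet single-cell RNA-seq from 10x Genomics, with 1 library of 30 pooled fish per genotype. The authors counted UMIs per gene and barcode with Cell Ranger, and the deposited values are raw counts. The submitters' processing notes name GRCz11 and Seurat, and the annotation release is not given in the sources used here. The filter asked for 500 UMIs, 250 genes and no more than 20% of UMIs from mitochondrial genes, and doublets stayed in, with removal by Scrublet score as an alternative. A marker counted in a cell where its share of UMIs was at least 2 times its share of the library, a lineage needed 3 such markers, and a second lineage above 0.5 of the first made a cell mixed. This 2-fold condition was set after the data were seen. Cells were thinned to 1000 UMIs with a fixed seed and 20 further draws. CPM carry exact Poisson intervals, shares Clopper-Pearson intervals, ratios of shares Katz intervals and differences of percents Newcombe intervals, all at 95%. Python 3.11.15, numpy 2.4.6, scipy 1.17.1, pandas 2.3.3 and scanpy 1.11.5 were used. The calls were run on simulated Poisson counts, which is the model the intervals assume. That run cannot check the calls where few cells hold most UMIs of a gene. Values were given for genes with at least 100 UMIs over both libraries, for the 3 highest and 3 lowest ratios and for the gene with most UMIs of each role in each lineage. Genes of the other lists were named among those called. The genes and lists were chosen with earlier results of these data known.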

Additional observations from a re-analysis of the deposited data

Results flagged for a closer look

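In glial cells both lists were higher in the knockout library, in rx3-positive and immune cells both were lower, and in oligodendrocyte lineage cells the mitotic list was lower. The log2 fold change of the S phase list differed by 0.83 between glial and rx3-positive cells and by 1.51 between glial and immune cells. For the mitotic list, glial cells differed by 1.71 from rx3-positive cells, by 2.89 from oligodendrocyte lineage cells and by 2.59 from immune cells. With 1 library per genotype these differences were not tested. The mitotic values of glial and oligodendrocyte lineage cells rest on few cells. In rx3-positive cells 3 cells held 44.3% of the WT mitotic UMIs, and in immune cells 3 held 68.9% of the knockout ones. As little as 1 rx3 UMI set rx3-positive cells apart from glial ones. Pooled, the 2 had log2 fold changes of 0.041 for S phase and −0.13 for mitotic genes. The mitotic value of rx3-positive cells also reversed without the 2-fold condition of the lineage rule, as given below.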

How the results depend on the processing

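No paired analysis was possible because each genotype has 1 library. Of the values recomputed under another setting, 118 moved by less than their counting interval or count limit, 46 moved by more and 3 reversed, and the cause was not tested. Without barcodes of high doublet score, which were shallower than the others, the mitotic log2 fold change was −0.58 over all kept cells, −0.70 in rx3-positive, −2.60 in oligodendrocyte lineage and −2.26 in immune cells, and that of S phase genes −0.20 in oligodendrocyte lineage and −0.75 in immune cells. The S phase percent then differed by 4.90, 5.79, 16.1 and 22.6 points in the same 4 sets, and 10 genes passed the fold over all kept cells. Without the 3 top cells of a list, mitotic values were 0.70 in glial, −0.31 in rx3-positive, −0.062 in oligodendrocyte lineage and −2.60 in immune cells, and S phase values −0.17 in rx3-positive and −1.20 in immune cells. Without a gene's 3 top cells, 10 genes were higher in glial cells and 5 and 0 lower in rx3-positive and oligodendrocyte lineage cells. The share of all features called was computed in the main setting only. The gene counts of this section therefore have no such share beside them and cannot be set against one. The stricter lineage rule asked for 4 markers for a lineage and also for 2 rx3 UMIs in rx3-positive cells. Under both changes together the glial mitotic value was 2.34 and 2 genes were lower in glial cells.

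The settings chosen after seeing the data were the lineage rule without the 2-fold condition, the leaving out of shared barcodes and all counts of genes per lineage. Without the 2-fold condition, which left 4427 WT and 4245 knockout cells mixed, the mitotic value in rx3-positive cells reversed to 0.51 and their S phase percent to −8.47 points. The mitotic value was 0.37 in glial, −0.32 in oligodendrocyte lineage and −2.55 in immune cells, and the S phase value 0.20 in glial, −0.076 in rx3-positive and −1.27 in immune cells. The S phase percent differed by −1.50, 0.545 and 16.2 points in glial, oligodendrocyte lineage and immune cells. Then 5 genes were higher in glial cells, and 4, 0 and 8 lower in rx3-positive, oligodendrocyte lineage and immune cells. With a minimum of 100 UMIs, 6 were higher and 0 lower in glial cells, and 5, 0 and 5 lower in the same 3 lineages, with fewer genes tested.

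Without the S phase and the mitotic gene with most UMIs, the S phase percent in immune cells reversed to −1.23 points and that of oligodendrocyte lineage cells was 19.4 points. In the main setting, 168 of the 215 WT mitotic UMIs of the oligodendrocyte lineage lay in 1 cell. The ratio of shares was 0.978 over all kept cells at 2000 UMIs, 0.498 in immune cells at 2000 UMIs and 0.771 without thinning. In oligodendrocyte lineage cells it was 0.273 with S phase and mitotic genes alone and 0.364 for 5 or more genes. The stricter cell filter, the other scaling and leaving out shared barcodes are among the settings under which no list level, share or percent moved that far. Few cells carry mitotic transcripts, and 1 library per genotype limits every comparison.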
